A study of Mus musculus with 6 samples.

Results

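Phase II enzymes join a small polar group to a reactive or foreign molecule so that it can leave the cell, and carbonyl reductases turn aldehydes and ketones into alcohols. The genes described here are the glutathione transferases (Gst, and the membrane-bound Mgst), the UDP-glucuronosyltransferases (Ugt), the sulfotransferases (Sult), the carbonyl reductases (Cbr) and the aldo-keto reductases of family 1 (Akr1). They were chosen by name from the arrays' annotation, and a gene was kept when a probe of it stood well above background in at least 1 array out of 6. Of 75 matching gene names on the array, 50 were kept, among 17424 kept genes of 23614 named genes in all.

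RNA came from mouse embryonic fibroblasts (MEFs), the connective tissue cells that grow out of minced embryos, of strain ICR by the labels. The 3 genotypes were wild type, Clk/Clk (mutant in the clock activator Clock, per the series design) and Per2m/m (mutant in the clock repressor Per2). Cells of each genotype had received either a mock or a vector that expresses H-Ras, a growth-signalling GTPase and oncogene, and SV40T, the viral T antigen that disables p53 and RB. For transfected Per2m/m cells the source name gives H-Ras and not SV40, while the vector label gives both. Each of the 6 groups was 1 single-colour Agilent array, so no group had replicates, no ratio of 2 arrays below has a test, and the sources used here do not say whether a group is 1 clone or a pool.

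All values called levels are log2 of the processed spot signal minus the array's 75th percentile, so that 0 is a probe at that percentile and a difference of 1 is 2-fold. A genotype's response is its transfected array over its mock array, as a log2 ratio. A member counts as higher or lower when both arrays were at least 2-fold apart and the brighter signal was well above background. Where the dimmer array was not well above background, the difference is given as at least N-fold, the brighter level against a floor for the dim array, which is the higher of the dim level itself and the lowest that passed as well above background there. Levels of different genes come from different probes and are not set against each other.

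The transfected Per2m/m array stood apart. Its correlation with the other arrays across genes was 0.855 to 0.893, against 0.928 to 0.981 among the others, and 49.3% of its spots were well above background, against 53.5% to 57.3%. Xist, Ddx3y and Eif2s3y, which are sex-linked, had clear signal in mock Per2m/m cells. None of the 3 was well above background on the transfected Per2m/m array, where they were at least 16.7-fold, 23.3-fold and 13.8-fold lower. Xist also lacked signal well above background on both Clk/Clk arrays (−6.79 in mock, −6.63 in transfected cells), against −1.02 and −0.95 for wild type, while Ddx3y and Eif2s3y were well above background on these 4 arrays. Of 12 fibroblast markers, all 12 were well above background on 4 arrays and 10 on the transfected wild type and transfected Per2m/m arrays, where Lum and Fap were not. The fibroblast marker Thy1 was at 7.11 on the mock and −0.65 on the transfected Per2m/m array, and at 6.87 and 3.53 for wild type. After transfection 7 of the 12 were lower and 0 higher in Per2m/m cells, against 20.6% and 18.7% of all genes. In wild type cells 5 were lower and 1 higher, against 11.9% and 7.45%, and in Clk/Clk cells 1 and 1, against 4.18% and 3.72%. Macrophage markers well above background numbered 11 of 12 in mock wild type, 12 of 12 in mock Per2m/m and 7 or 8 of 12 in the other cultures. Of 10 epithelial markers 7 or 8 were well above background on each array. In Per2m/m cells 4 of the 10 were higher and 2 lower after transfection, against 18.7% and 20.6% of all genes. Krt14 was at −4.12 on the mock and 2.57 on the transfected Per2m/m array, while Krt19 and Krt18 were not well above background on the latter, at least 88.1-fold and 16.0-fold lower. Mesothelial markers were well above background in 1 to 4 of 4, endothelial in 2 to 4 of 5, fat-cell in 0 to 2 of 2 and steroid-making cell markers in 2 to 4 of 4. Both Per2m/m arrays lay in the second row of the slide and the other 4 in the first. Every Per2m/m response below rests on the transfected Per2m/m array and has no value without it, and the part of culture make-up in these and in the Clk/Clk over wild type results was not tested.

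As background, glutathione transferases add the tripeptide glutathione to electrophiles, Ugt enzymes in the endoplasmic reticulum add glucuronic acid, and Sult enzymes in the cytosol add sulfate. Many of these genes are known targets of the transcription factor NRF2 (gene Nfe2l2), which KEAP1 holds back until oxidants or electrophiles release it, and some of the aryl hydrocarbon receptor (Ahr). Most are best known from liver, and fibroblasts express a subset.

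Several members are near-identical to a neighbour, which limits what a probe can name. The following 30-base stretches are shown because they carry the differences between probes that read such copies; capitals mark bases that differ within a set, and all stretches are from the array's probes, 5′ to 3′, with probe positions on build mm9.
Gsta2 (chromosome 9, 78178856 to 78178915): ctggcctctaatTgtttgcaattataaaaT
Gm10639 (chromosome 9, 78153243 to 78153302): ctggcctctaatGgtttgcaattataaaaT
Gm3776 (chromosome 9, 78116894 to 78116953): ctggcctctaatGgtttgcaattataaaaA
Sult2a1 (chromosome 7, 14381602 to 14381661): ttgttGtGtatcttgaatacctAGatGtgg
Sult2a4 (chromosome 7, 14495026 to 14495085): ttgttCtGtatcttgaatacctAGatGtgg
Sult2a2 (chromosome 7, 14364926 to 14364985): ttgttCtAtatcttgaatacctGAatAtgg
Gstp2 (chromosome 19, 4040983 to 4041042): cgcggcaaatatgGcaccAtGatctacaGA
Gstp1 (chromosome 19, 4035908 to 4036723): cgcggcaaatatgTcaccCtCatctacaCC
Cbr1 (chromosome 16, 93610453 to 93610512): gataaaaAagttgaaccatggtgaacccaa
an unnamed probe (chromosome 16, 93630554 to 93630613): gataaaaCagttgaaccatggtgaacccaa

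The Gsta2 probe shared 60 aligned bases with 7 mismatches with the Gm10639 probe and 50 with 4 mismatches with the Gm3776 probe. The Sult2a1 and Sult2a4 probes shared 54 with 3 mismatches, and the array's annotation lists both genes for each of these probes. The annotation also lists Ugt1a9 for the Ugt1a10 probe, 4 Ugt1a genes each for the Ugt1a6a and Ugt1a6b probes, which share the last exons of that locus, and Gm6644 for Akr1b3. The Cbr1 probe shared 46 bases with 5 mismatches with the unnamed probe. Values of all these genes may hold signal of the copy.

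**Figure D1:**
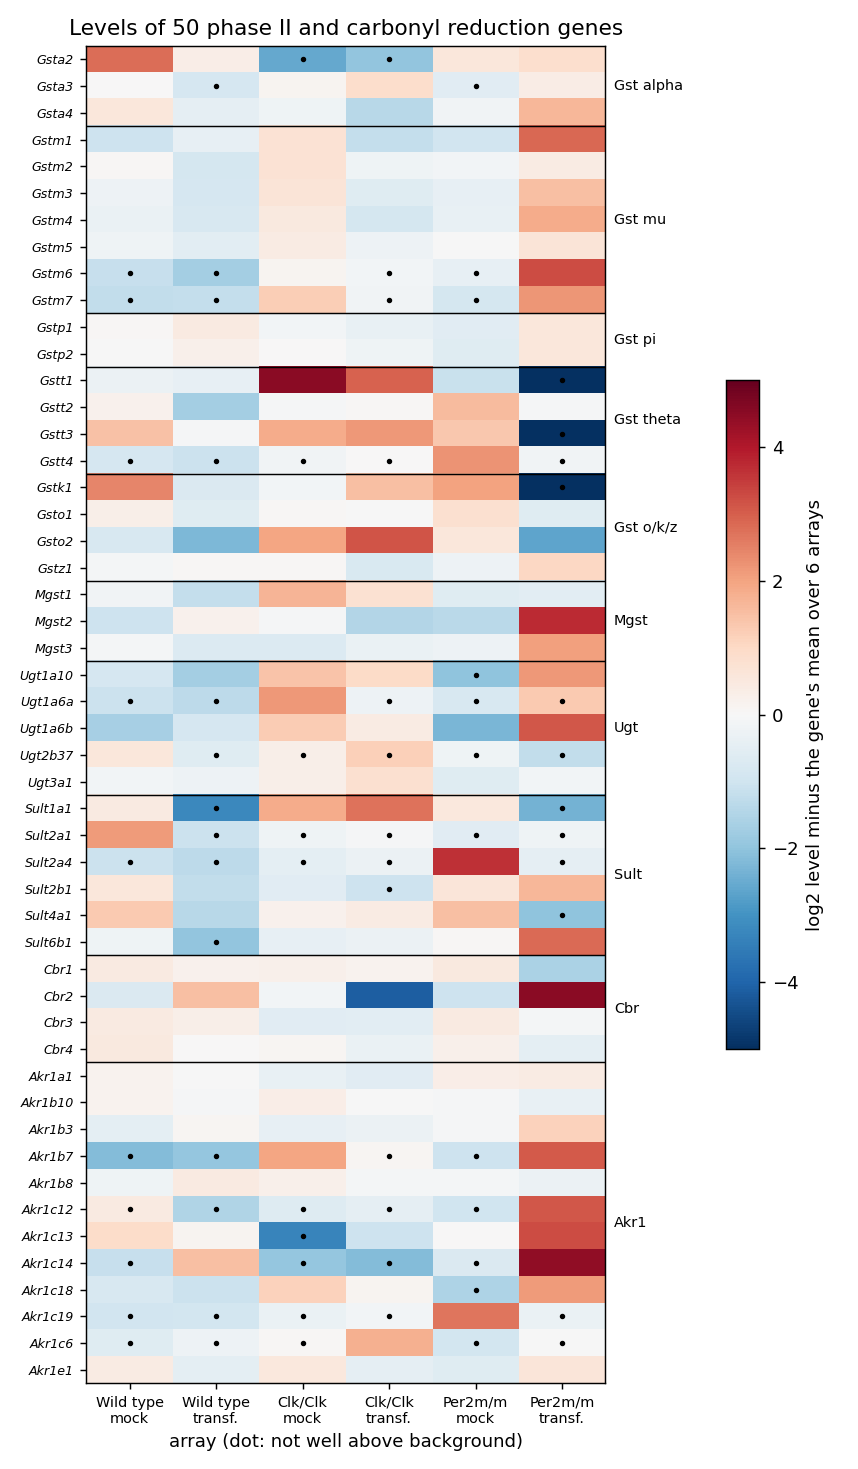
Levels of the 50 members (rows, by family) on the 6 arrays (columns), as log2 level minus the gene's mean over the arrays. Dots mark arrays where the gene was not well above background. The transfected Per2m/m column holds the highest level of 25 of the 50 genes, and of 33.8% of all 17424 genes.

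Detection differed by family. All 23 Gst and Mgst names and all 4 Cbr names were kept, with 12 of 16 Akr1, 5 of 15 Ugt and 6 of 17 Sult names. The 25 others were not well above background on any array: 11 Sult, 10 Ugt and 4 Akr1 genes. Of the 50 members, 26 were well above background on 6 arrays, 9 on 5, 3 on 4, 4 on 2 and 8 on 1. These last 8 were kept through a single array and had to be brighter there, so their direction there was fixed by the filter. By the probes used, Gstm6, Gstm7 and Akr1b7 were well above background on 2 arrays, mock Clk/Clk and transfected Per2m/m. Akr1c14 was so on the transfected wild type and transfected Per2m/m arrays. Where 1 of these 2 arrays was compared with an array outside them, the direction of these 4 members was fixed too. The 42 members on more than 1 array are counted separately below and include these 4.

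After transfection, wild type cells had 13 members at least 2-fold lower and 3 higher, where 11.9% and 7.45% of all kept genes were lower and higher. Clk/Clk cells had 10 lower and 4 higher, against 4.18% and 3.72% of all genes. Per2m/m cells had 23 higher and 12 lower, against 18.7% and 20.6% of all genes. In the order wild type, Clk/Clk, Per2m/m, the median response of the 50 members was −0.37, −0.22 and 0.94, beside −0.01, 0.02 and 0.12 over all genes. When a dim value counted only if its bound was at least 2-fold, members lower and higher numbered 12 and 3, 8 and 3, and 9 and 23 in that order. The shares of all genes were then 10.5% and 6.86%, 3.24% and 2.86%, and 17.8% and 17.8%. Among the 42 members kept through more than 1 array, 11 were lower and 3 higher for wild type, 9 lower and 3 higher for Clk/Clk, and 9 lower and 22 higher for Per2m/m cells. Of the 16118 genes so kept, 11.9% were lower and 7.23% higher, 4.0% and 3.36%, and 20.9% and 18.2% in the same order.

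**Figure D2:**
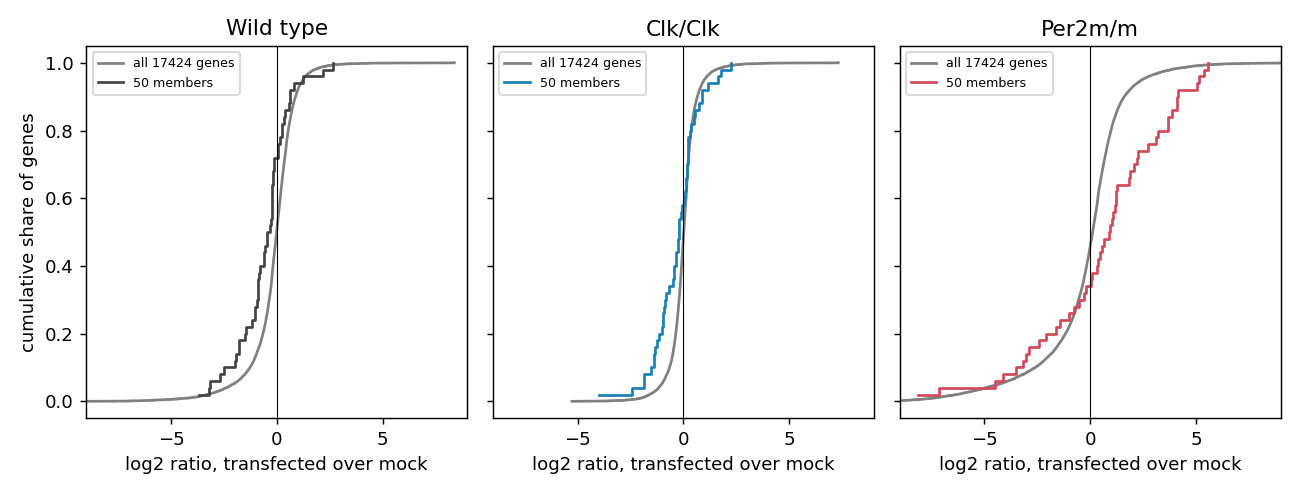
Cumulative share of genes (vertical axis) at or below each log2 ratio of the transfected over the mock array (horizontal axis), for the 50 members and all 17424 kept genes, by genotype. The members' curve lies to the left of all genes around 0 in wild type and Clk/Clk cells (medians −0.37 and −0.22) and to the right in Per2m/m cells (median 0.94, against 0.12).

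The mu-class glutathione transferases, cytosolic enzymes encoded side by side on chromosome 3 (probes from 107701101 to 107846847), had median responses of opposite sign in Clk/Clk and Per2m/m cells. Of the 7, 5 were higher and 0 lower in Per2m/m cells (median response 2.22), against 18.7% and 20.6% of all genes. In Clk/Clk cells 4 were lower and 0 higher, with a median of −1.24, against 4.18% and 3.72% of all genes. In wild type cells 0 of 7 passed 2-fold, with a median of −0.44. By the probes used, Gstm6 and Gstm7 were kept through the mock Clk/Clk and transfected Per2m/m arrays, which fixed their direction in both mutants. Gstm4 in Per2m/m cells depended on the probe, which leaves Gstm1 and Gstm3 without these limits among the genes called.

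Gstm1, a mu-class enzyme of broad substrate range, was at 1.51 for mock and 2.15 for transfected wild type cells, 3.26 and 1.37 for Clk/Clk cells, and 1.58 and 5.43 for Per2m/m cells. Its level was highest on the transfected Per2m/m and second on the mock Clk/Clk array, and the responses were 0.64, −1.89 and 3.85. The annotation places this probe on chromosome 5 (117082490 to 117082549), outside the cluster. A second Gstm1 probe inside it (chromosome 3, 107815595 to 107815654) gave responses of 0.75, −1.78 and 3.82.

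Gstm4 read −0.60 and −1.04 for wild type, 0.23 and −1.12 for Clk/Clk, and −0.62 and 1.61 for Per2m/m cells, responses of −0.44, −1.35 and 2.22. Its probes disagreed. The probe used spans an intron (chromosome 3, 107846495 to 107846847), and another further 3′ (107843802 to 107843861) had responses of −1.35 and −0.17 for wild type and Clk/Clk cells and was not well above background on the transfected Per2m/m array, at least 14.4-fold lower than mock. The direction of Gstm4 in Per2m/m cells therefore depends on the probe, and it was the only member among 18 with several kept probes whose probes were more than 2-fold apart in opposite directions.

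The probe used for Gstm6 was well above background only on the mock Clk/Clk array, at −4.33, and the transfected Per2m/m array, at −1.22, which was at least 12.7-fold above mock. Another probe was so on the transfected Clk/Clk array too, at −3.62. Both other kept probes were also brighter in transfected than in mock Per2m/m cells, by at least 20.7-fold and 3.87-fold. The probe used for Gstm7 was well above background on the mock Clk/Clk and transfected Per2m/m arrays, at −3.76 and −2.78. It was at least 1.70-fold lower in transfected than in mock Clk/Clk cells and at least 4.62-fold higher in transfected than in mock Per2m/m cells.

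The other 3 mu genes were well above background on every array. Gstm3 had responses of −0.58, −1.24 and 1.89 in wild type, then Clk/Clk, then Per2m/m cells. Gstm2 (−0.92, −0.92 and 0.55) and Gstm5 (−0.31, −0.68 and 0.64) stayed under 2-fold in all 3 genotypes, with the highest value in Per2m/m cells.

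**Figure D3:**
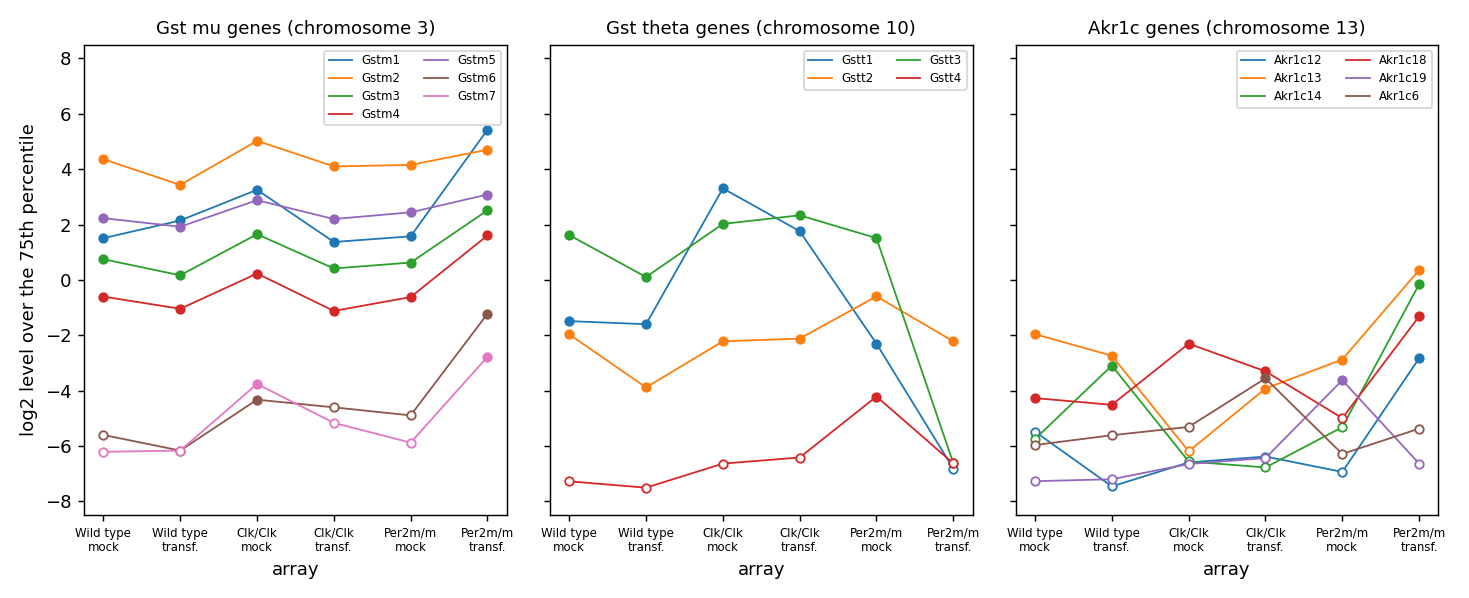
Levels of the genes of 3 clusters, mu-class Gst on chromosome 3, theta-class Gst on chromosome 10 and Akr1c on chromosome 13, on the 6 arrays (vertical axis, log2 over the 75th percentile). Lines join the arrays of a gene for the eye only, and open points are not well above background. On the transfected Per2m/m array Gstm1 reached 5.43 and Akr1c14 −0.16, while Gstt3 was at −6.62.

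The theta-class genes on chromosome 10 (75236966 to 75295265), which act on small halogenated molecules, were lower after transfection of Per2m/m cells in 4 of 4, against 20.6% of all genes. Of these, Gstt4 was kept through the mock Per2m/m array alone, which fixed its direction, and Gstt1 was lower by 1 of its 2 kept probes, which leaves Gstt2 and Gstt3 without these limits. Gstt3 was at 1.62 and 0.10 for wild type, 2.02 and 2.33 for Clk/Clk, and 1.51 in mock Per2m/m cells. It was not well above background in transfected Per2m/m cells, at −6.62, a difference of at least 68.5-fold.

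Gstt1 was at −1.49 and −1.60 for wild type, 3.31 and 1.76 for Clk/Clk, and −2.30 in mock Per2m/m cells, and not well above background after transfection there, at least 4.88-fold lower. The Clk/Clk arrays were the high ones, 27.8-fold above wild type in mock and 10.3-fold in transfected cells. A second probe of Gstt1 (chromosome 10, 75259864 to 75259923) did not show this. Its responses were −0.01, −0.25 and 0.33, so the values given for Gstt1 are those of the probe at 75246560 to 75246619 alone.

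Gstt2 had responses of −1.91, 0.10 and −1.62 in wild type, then Clk/Clk, then Per2m/m cells. Gstt4 was well above background only on the mock Per2m/m array, at −4.21, at least 1.30-fold above the transfected array.

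Gstk1, the kappa-class enzyme of mitochondria and peroxisomes, was at 1.03 and −2.13 for wild type, −1.54 and 0.08 for Clk/Clk, and 0.57 in mock Per2m/m cells. On the transfected Per2m/m array it was not well above background, at −6.55, at least 35.8-fold lower than mock. The response was −3.17 for wild type and 1.62 for Clk/Clk cells, so the wild type and Clk/Clk pairs lay in opposite directions.

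Gsto2, an omega-class enzyme that reduces dehydroascorbate, read 1.61 and 0.17 for wild type, 4.38 and 5.56 for Clk/Clk, and 2.96 and −0.21 for Per2m/m cells. It was 6.81-fold higher in mock Clk/Clk than in mock wild type cells and 42.0-fold higher in the transfected pair. The responses were −1.44, 1.18 and −3.18. Its neighbour Gsto1 had responses of −0.90, −0.08 and −1.41, and Gstz1, which isomerises maleylacetoacetate in tyrosine breakdown, 0.15, −0.83 and 1.29.

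Gsta2, an alpha-class enzyme, was at −0.29 and −2.78 for wild type and −2.55 and −2.24 for Per2m/m cells. It was not well above background on either Clk/Clk array, at least 20.2-fold below wild type in mock cells and at least 3.34-fold in transfected cells. Mock wild type was its only high array, with a response of −2.49. The near-identical Gm3776 and Gm10639 probes were also highest there, at 0.76 and 1.29 in mock and −1.69 and −1.25 in transfected wild type cells, and were not well above background in mock Clk/Clk cells. In transfected Clk/Clk cells they were, at −3.62 and −2.89, where the Gsta2 probe was not, at −5.08. How much of the Gsta2 signal came from these copies was not tested.

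Gsta4, which clears the lipid aldehyde 4-hydroxynonenal, was at 0.80 and −0.24 for wild type, 0.01 and −1.15 for Clk/Clk, and 0.06 and 1.88 for Per2m/m cells. Both other genotypes were lower after transfection, with responses of −1.04 and −1.16, against 1.82 in Per2m/m cells. Gsta3 was dim, with levels from −5.48 to −3.75 and no response of 2-fold, although a second, also dim probe was at least 2.63-fold higher in transfected than in mock Clk/Clk cells.

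The pi-class pair was well above background on every array. Responses were 0.38, −0.22 and 1.1 for Gstp1, an enzyme that also binds the kinase JNK, and 0.26, −0.25 and 1.16 for Gstp2. The Gstp1 probe is near-identical to a second Gstp2 probe, the one printed above, over 35 bases with 5 mismatches, so signal of the pair may be mixed.

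Among the membrane-bound enzymes, Mgst2, which also makes leukotriene C4, read −0.68 and 0.55 for wild type, 0.29 and −1.13 for Clk/Clk, and −1.0 and 4.07 for Per2m/m cells. The transfected Per2m/m array was the high one, and the responses were 1.23, −1.41 and 5.07. Mgst3 was at 1.81 and 1.22, 1.22 and 1.58, and 1.67 and 3.96 in the same order, with a response of 2.29 in Per2m/m cells and −0.59 and 0.35 in the others.

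Mgst1, which protects membranes of the endoplasmic reticulum and mitochondria from peroxides, differed by genotype more than by transfection. It was at 2.05 and 1.05 for wild type, 3.94 and 2.98 for Clk/Clk, and 1.62 and 1.69 for Per2m/m cells. Both Clk/Clk arrays lay above the other 4, by 3.69-fold over wild type in mock and 3.81-fold in transfected cells. Its second probe gave responses of −1.03, −0.91 and 0.08, near those of the first, at −1.01, −0.96 and 0.06.

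Of the 5 Ugt members 3 lie in the Ugt1a locus on chromosome 1, where alternative first exons join shared last exons. The Ugt1a6b probe (90115493 to 90115552), which lies in the shared part, was at 1.07 and 1.90 for wild type, 4.02 and 3.15 for Clk/Clk, and 0.43 and 5.84 for Per2m/m cells. The response was 5.41 in Per2m/m cells, 0.83 for wild type and −0.87 for Clk/Clk cells. A probe nearer the 5′ end (90004249 to 90004308) gave 5.79, 1.32 and −1.54.

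Ugt1a10 (89952780 to 89952839), also listed as Ugt1a9, was at −3.74 and −4.58 for wild type, −1.44 and −1.94 for Clk/Clk, and −0.72 in transfected Per2m/m cells. It was not well above background in mock Per2m/m cells, at least 18.1-fold lower than in transfected ones. Mock Clk/Clk cells were 4.93-fold above mock wild type for this probe and 7.72-fold for Ugt1a6b. Ugt1a6a was well above background only on the mock Clk/Clk array, at −4.10. Ugt2b37 was well above background only on the mock wild type array, at −4.70, and Ugt3a1 had no response of 2-fold.

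Sulfotransferases were dim, and in wild type cells 5 of 6 were lower and 0 higher after transfection, against 11.9% and 7.45% of all genes. Sult2a1, one of the 5, was kept through the mock wild type array alone, and without it and Sult2a4, also kept through 1 array, 4 of 4 were lower. In Clk/Clk cells 0 of 6 passed 2-fold. In Per2m/m cells 3 were lower and 2 higher, and 2 and 2 without Sult2a1 and Sult2a4, against 20.6% and 18.7% of all genes.

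Sult1a1, the main phenol sulfotransferase, was at −3.85 in mock wild type and −3.76 in mock Per2m/m cells and at −2.45 and −1.57 for Clk/Clk cells. The transfected wild type and Per2m/m arrays were not well above background for it, at least 3.07-fold and 1.78-fold lower than mock. Transfected Clk/Clk cells were at least 14.9-fold above transfected wild type cells.

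Sult4a1, a brain-type member without a settled substrate, was at −1.11 and −3.81 for wild type, −2.21 and −2.00 for Clk/Clk, and −0.90 in mock Per2m/m cells, and at least 11.4-fold lower after transfection there. Sult6b1 was at −3.99 in mock wild type cells, at least 2.79-fold above transfected ones, at −4.18 and −4.09 for Clk/Clk cells, and at −3.72 and −0.96 for Per2m/m cells. Its response of 2.75 in Per2m/m cells stood against the lower value in wild type. Sult2b1, a cholesterol sulfotransferase, was lower after transfection in wild type (−1.80) and higher in Per2m/m cells (1.04), and was at least 1.37-fold lower in transfected Clk/Clk cells.

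Sult2a1 and Sult2a4 were each well above background on 1 array, Sult2a1 on mock wild type at −4.33 and Sult2a4 on mock Per2m/m at −2.75. Their probes differ at 3 of 54 shared bases, yet the probe of Sult2a4 was not well above background where that of Sult2a1 was, nor the reverse.

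**Figure D4:**
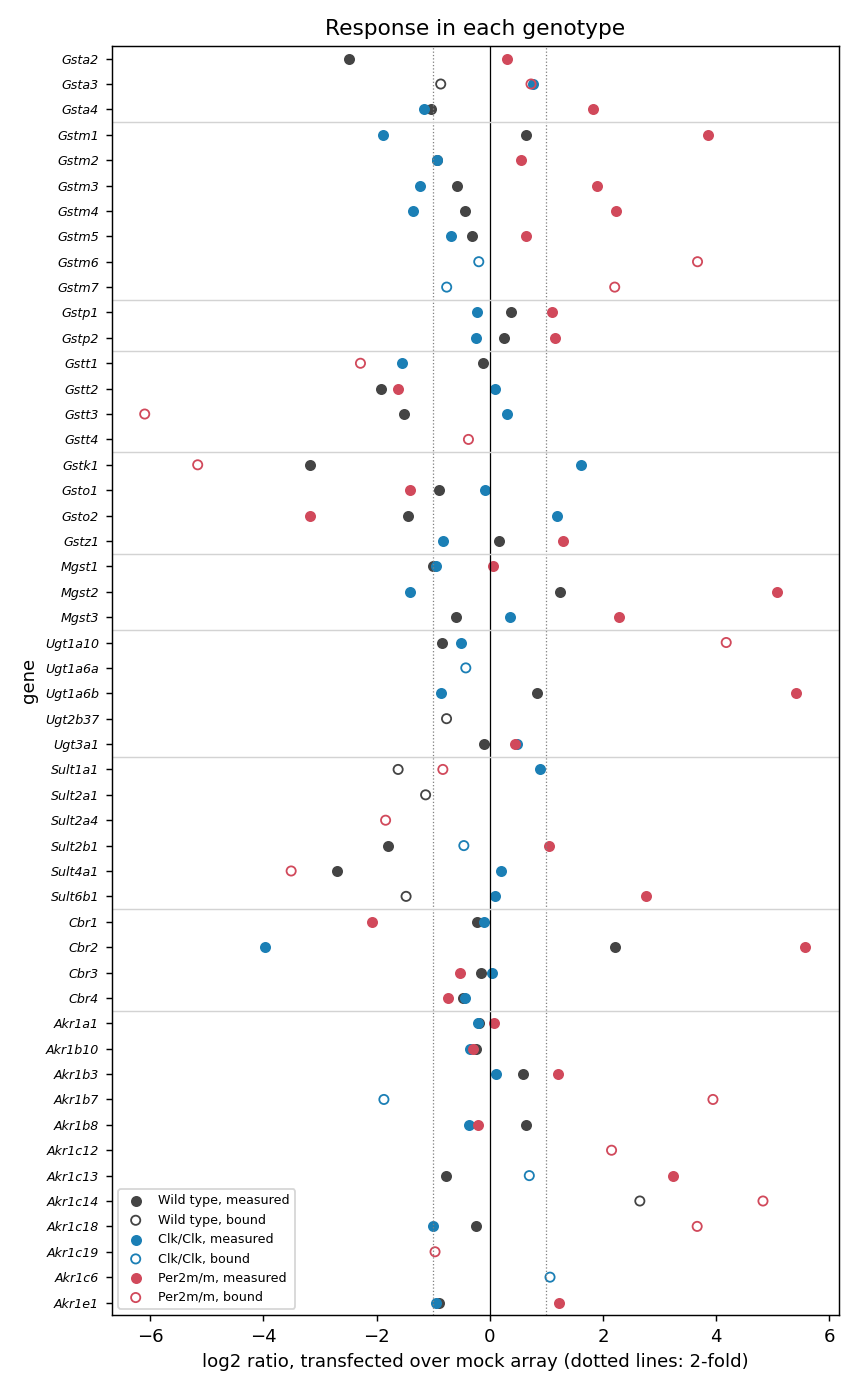
Log2 ratio of the transfected over the mock array (horizontal axis) for each member (rows) in wild type, then Clk/Clk, then Per2m/m cells. Filled points are measured on both arrays, open points are bounds with 1 array not well above background, and dotted lines mark 2-fold. Cbr2 spans the widest measured range, from −3.97 in Clk/Clk to 5.58 in Per2m/m cells, and Gstt3 and Gstk1 hold the lowest bounds, at least 68.5-fold and 35.8-fold lower in Per2m/m cells.

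Cbr2, a carbonyl reductase best known from lung, was at 0.15 and 2.36 for wild type, 0.71 and −3.26 for Clk/Clk, and −0.20 and 5.38 for Per2m/m cells. It was high on the transfected Per2m/m array and low on the transfected Clk/Clk array, while the 3 mock arrays lay close together. The responses were 2.21, −3.97 and 5.58. A second probe (chromosome 11, 120592059 to 120592118) gave 1.85, −2.49 and 5.40, the same order with a difference of 1.48 in Clk/Clk cells.

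Cbr1, which reduces prostaglandins and quinones, lay between 2.46 and 2.78 on 5 arrays and at 0.70 on the transfected Per2m/m array, a response of −2.07. The near-identical unnamed probe on chromosome 16 was at 0.88 to 1.21 on the other 5 arrays and not well above background on that array. Cbr3 and Cbr4 had no response of 2-fold, with ranges of 1.01 and 0.97 over the 6 arrays.

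Aldo-keto reductases of the Akr1c cluster on chromosome 13, which act on steroids and prostaglandins, were dim on most arrays and brighter on the transfected Per2m/m array. Of the 6 Akr1c members and the adjacent Akr1e1, 5 were higher and 1 lower in Per2m/m cells, against 18.7% and 20.6% of all genes. In wild type cells 1 was higher and 0 lower, against 7.45% and 11.9% of all genes. In Clk/Clk cells 2 were higher and 0 lower, against 3.72% and 4.18%. Akr1c12, Akr1c19 and Akr1c6 were each kept through 1 array, and without them 4 of 4 were higher in Per2m/m cells and 1 of 4 in each other genotype. Akr1c14 is among these 4 and is the member higher in wild type. It was kept through the transfected wild type and transfected Per2m/m arrays, so the filter fixed both of these directions. That leaves Akr1c13, Akr1c18 and Akr1e1 without this limit, all higher after transfection of Per2m/m cells.

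Akr1c13 was at −1.96 and −2.74 for wild type and −2.87 and 0.36 for Per2m/m cells, a response of 3.23 in the latter. The mock Clk/Clk array was not well above background for it, the transfected one stood at −3.92, and mock Clk/Clk cells were at least 6.33-fold below mock wild type. Akr1c18, a progesterone-metabolising enzyme, was at −4.27 and −4.51 for wild type, −2.30 and −3.30 for Clk/Clk, and −1.32 in transfected Per2m/m cells, at least 12.7-fold above mock.

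Akr1c14, a hydroxysteroid dehydrogenase, was well above background only after transfection, at −3.09 for wild type and −0.16 for Per2m/m cells. These were at least 6.29-fold and 28.4-fold above the mock arrays. Akr1c12 was well above background only on the transfected Per2m/m array, at −2.83, at least 4.45-fold above mock. Akr1c19 was seen only on the mock Per2m/m array, at −3.62, at least 1.96-fold above the transfected one.

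Akr1c6, a liver steroid dehydrogenase, was well above background only on the transfected Clk/Clk array, at −3.56, at least 2.09-fold above mock. On that array 6 of 7 kept hepatocyte markers were well above background, against 1 to 3 on the others. Alb (−1.62), Ttr (−3.94), Serpina1a (0.74) and Hnf4a (−4.03) were well above background there alone, and the marker Afp was not. The part of liver-type RNA in the Akr1c6 value was not tested.

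In the Akr1b cluster on chromosome 6, Akr1b7, an aldose reductase-like enzyme known from adrenal and vas deferens, was well above background only on the mock Clk/Clk array, at −2.15, and the transfected Per2m/m array, at −1.04. It was at least 3.66-fold lower after transfection in Clk/Clk cells, at least 15.4-fold higher after it in Per2m/m cells, and at least 12.2-fold higher in mock Clk/Clk than in mock wild type cells. Akr1b3, aldose reductase, had responses of 0.58, 0.12 and 1.21, and Akr1b8 and Akr1b10 had no response of 2-fold. Akr1e1, the reductase of 1,5-anhydrofructose, responded by 1.22 in Per2m/m cells and −0.90 and −0.94 for wild type and Clk/Clk cells. Akr1a1, the general aldehyde reductase, had a range of 1.00 over the 6 arrays.

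Without transfection, mock Clk/Clk cells had 12 members at least 2-fold higher and 7 lower than mock wild type cells, against 10.5% and 10.5% of all genes. The higher ones were Gstt1 (by the probe used), Gsto2, Mgst1, Gstm1, Gstm6, Gstm7, Ugt1a6b, Ugt1a10, Ugt1a6a, Akr1b7, Akr1c18 and Sult1a1. The lower ones were Gsta2, Gstk1, Akr1c13, Cbr3, Sult4a1, Sult2b1 and Sult2a1. Gstk1 was 5.96-fold lower and Gstm1 3.36-fold higher.

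Mock Per2m/m cells had 5 members higher and 4 lower than mock wild type, against 4.38% and 4.53% of all genes. Gsto2 was 2.56-fold and Gstt2 2.59-fold higher, and the other 3, Akr1c19, Gstt4 and Sult2a4, were not well above background in mock wild type cells. Gsta2 was 4.80-fold lower, Akr1e1 2.01-fold, Ugt1a10 at least 2.23-fold and Sult2a1 at least 1.57-fold. Without the members kept through 1 array, 2 were higher and 3 lower, against 3.47% and 4.08% of genes so kept.

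Among transfected cells, Per2m/m had 24 members higher and 4 lower than wild type, against 14.7% and 16.2% of all genes. Among members kept through more than 1 array, 23 were higher and 4 lower, against 13.8% and 16.7% of genes so kept. By the probes used, all 7 mu-class genes were among the higher ones, from 2.24-fold for Gstm5 to at least 19.0-fold for Gstm6. Gstm6, Gstm7 and Akr1b7 were kept through the mock Clk/Clk and transfected Per2m/m arrays, and Akr1c12 through the transfected Per2m/m array alone. The filter fixed their direction here. The other kept probe of Gstm4 was at least 6.78-fold lower in transfected Per2m/m than in transfected wild type cells. The direction of Gstm4 thus depended on the probe here too. Ugt1a6b at 15.3-fold, Mgst2 at 11.5-fold and Cbr2 at 8.14-fold were also among the higher members. The 4 lower ones were Gstt3, Gstt1 (by the probe used), Gstk1 and Cbr1. Transfected Clk/Clk cells had 15 higher and 5 lower than transfected wild type, against 13.8% and 11.0% of all genes. Cbr2 was 49.1-fold lower, and Gstt1 (by the probe used), Gsto2, Mgst1 and Sult1a1 were among the higher ones. Among members kept through more than 1 array, 14 were higher and 5 lower, against 14.1% and 11.1% of genes so kept. The filter fixed the direction of Akr1c6 (higher) and Akr1c14 (lower) here. On the transfected Clk/Clk array 6 of 7 hepatocyte markers were at least 2-fold above transfected wild type and 1 was lower. Serpina1a was at least 41.1-fold above mock there, and the part of liver-type RNA in these differences was not tested. With each array scaled to its median in place of the 75th percentile the split of 15 and 5 became 12 higher and 15 lower. That scaling shifted the median of all genes by more than 0.1 in 4 comparisons, to 0.31 for the wild type and 0.40 for the Per2m/m response and to −0.38 and −0.75 for mock and transfected Clk/Clk over wild type. Over all genes, the share of higher among called genes moved from 38.4% to 62.6%, 47.6% to 59.2%, 49.95% to 29.2% and 55.8% to 18.7% in these, and the members' split from 3 and 13 to 4 and 10, 23 and 12 to 24 and 12, and 12 and 7 to 11 and 8 in the first 3. These comparisons share the wild type arrays with the wild type response, so they are given side by side only.

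In an additive model of genotype and transfection over all 6 arrays (limma, Benjamini-Hochberg adjusted p under 0.05), 0 of 50 members and 0.0% of all genes were called for transfected minus mock, 0 and 0.0% for Per2m/m minus wild type, and 0 and 0.0% for Clk/Clk minus wild type. At an unadjusted p under 0.05 there were 803, 392 and 1619 genes of all (4.61%, 2.25% and 9.29%), and 0, 0 and 6 of 50 members. The 6 were Mgst1, Gsto2, Gstt1 (by the probe used), Sult1a1 and Akr1c6, higher in Clk/Clk cells, and Gsta2, lower. Akr1c6 was kept through the transfected Clk/Clk array alone, so the filter favoured a higher value in these cells. Hepatocyte markers were also well above background on that array. Mgst1 was higher by 1.91 ± 0.43 (standard error, 2 arrays against 2) with a limma adjusted p of 0.413. The model has 2 residual degrees of freedom, and a response that differs between genotypes counts as spread in it.

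The genes around these enzymes were read from lists chosen by function. After transfection, 18.7% of all genes were higher and 20.6% lower in Per2m/m cells. These shares were 7.45% and 11.9% in wild type, and 3.72% and 4.18% in Clk/Clk cells, and the counts of each list are given beside them. Of 21 measured regulators, 6 were higher and 5 lower in Per2m/m cells after transfection, 1 and 2 in wild type, and 1 and 1 in Clk/Clk cells. Nfe2l2 itself had responses of 0.55, −0.74 and 1.57 in wild type, then Clk/Clk, then Per2m/m cells, and Keap1 of 0.42, −0.06 and 0.19. Sqstm1, an adaptor that binds KEAP1, showed in Per2m/m cells a response of 2.10, and the clock output factors Dbp and Tef of 1.73 and 1.29. Ahr was higher by 1.80 in wild type and, after transfection of Per2m/m cells, at least 8.84-fold lower, and Pparg, the fat-cell receptor, had a response of −5.31 there.

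Glutathione supply had 7 of 18 genes higher and 4 lower in Per2m/m cells, against 18.7% and 20.6% of all genes. The counts were 1 and 1 in wild type, and 2 and 0 in Clk/Clk cells. The limiting synthesis enzyme had responses of 2.35 (Gclc, catalytic subunit) and 1.1 (Gclm, modifier subunit) in Per2m/m cells, the cystine importer Slc7a11 of 3.42 and the glutathione-degrading Chac1 of 3.34. Gss, which completes glutathione, had a response of −1.35 and Ggt7 was at least 25.6-fold lower.

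The donors of the other reactions were read in the same way, beside the same shares of all genes. Of 7 genes for UDP-glucuronate supply and glucuronide cleavage 0 passed 2-fold in any genotype, with Ugdh, which makes the donor, at 0.60, 0.62 and −0.08. Of 11 genes for sulfate donor supply and ester cleavage, 2 were higher and 2 lower in Per2m/m cells, 0 and 1 in wild type, and 0 and 0 in Clk/Clk cells. Papss2, which makes the sulfate donor, had responses of −1.55, −0.16 and −2.86. Of 9 NADPH-supplying genes, 2 were higher and 0 lower in Per2m/m cells, and 1 and 0 in wild type.

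Of 25 other conjugating and reducing enzymes, 4 were higher and 5 lower in Per2m/m cells, against 18.7% and 20.6% of all genes. The counts were 0 and 5 in wild type, against 7.45% and 11.9%, and 0 and 1 in Clk/Clk cells, against 3.72% and 4.18%. Ephx1, the microsomal epoxide hydrolase, showed in Per2m/m cells a response of 1.58, Nqo1, a quinone reductase, of 0.75, and the retinal reductase Dhrs3 of −6.84. Ephx2 was at least 16.6-fold lower there. Of 9 exporters, 1 was higher and 2 lower in Per2m/m cells, 0 and 2 in wild type, and 1 and 1 in Clk/Clk cells. Abcc5 showed in Per2m/m cells a response of 1.40, the drug exporter Abcg2 of −4.98, and Slco4a1 was at least 166-fold lower there.

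Promoters were searched for short motifs in RefSeq's promoter windows around the gene starts (GRCm38.p6), where 44 members had an entry. The core of the antioxidant response element, which NRF2 binds (TGACNNNGC, both strands), was in 5 of 44 members. By promoter, it was in 5 of the members' 54 (9.26%) and in 12.4% of all 32851. The members were Akr1c19, Gsta3, Gstm5, Gstm7 and Mgst1. The following stretches show the 4 with a match before the gene start, with the match in capitals, on the strand of the gene; in Mgst1 the match is on the opposite strand.
Gsta3 (chr1:21240444-21240492, + strand): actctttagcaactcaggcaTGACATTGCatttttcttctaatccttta
Gstm5 (chr3:107895792-107895840, + strand): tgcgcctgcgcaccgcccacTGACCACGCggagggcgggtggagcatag
Gstm7 (chr3:107931715-107931763, − strand): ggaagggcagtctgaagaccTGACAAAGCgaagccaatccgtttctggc
Mgst1 (chr6:138140451-138140499, + strand): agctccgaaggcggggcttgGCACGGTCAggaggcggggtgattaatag
The core bound by the aryl hydrocarbon receptor (GCGTG, both strands) was in 9 of 44 members, that is 11 of their 54 promoters (20.4%), and in 32.4% of all promoters. The E-box CACGTG, bound by CLOCK and BMAL1, was in 0 of the 54 and in 7.15% of all promoters. After transfection of Per2m/m cells, Gstm7 was at least 4.62-fold higher and Akr1c19 at least 1.96-fold lower. Gstm7 was at least 1.70-fold lower after that of Clk/Clk cells, and Mgst1 had responses of −1.01, −0.96 and 0.06. Gstm5 had no response of 2-fold, and Gsta3 had none by the probe used, while its second probe was at least 2.63-fold higher in Clk/Clk cells. A match is a match of letters in this window only.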

How the data were processed

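Total RNA from 6 cultures was labelled with Cy3 and hybridised to 6 Agilent arrays, 1 per genotype and transfection, grouped by sample title. The deposited scanner files give a linear intensity per spot, extracted with Feature Extraction 10.7.1.1 per the file headers, while the submitters' processing notes name version 9.5.1.1. The authors' deposited table also holds linear intensity, with a median of 23.8 in each column and r of at least 0.998 with its own array, and it is used as an alternative. Its normalization is not stated there.

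Each array had 59305 spots that were not controls, 85 to 125 of which were left out as outliers, and 0 were saturated. Spots of a probe were averaged, log2 processed signals were scaled to each array's 75th percentile, and a probe was kept when well above background on at least 1 array (in at least 0.5 of its spots). The kept probe with the highest mean level represents a gene. Names came from the files, brought up to date for 27312 probes by accession, 3532 by symbol and 553 by synonym in a RefSeq gene table, and 22932 probes stayed unnamed. Positions are those of the files (mm9). Repeated spots had a median SD of 0.05 to 0.06 (log2), which covers spot noise only; between probes of 1 gene, responses differed by a median of 0.10 to 0.14. The number of arrays limits the precision.

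Ratios of 2 arrays have no test. limma 3.58.1 in R 4.3.3 (lmFit, eBayes, two-sided) fitted genotype and transfection over all 17424 genes and was tested on simulated data; its p-values measure only the spread between these samples. Python 3.11.15, pandas 2.3.3, numpy 2.4.6 and matplotlib 3.10.9 were used otherwise.

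The members, lists and rules were chosen with earlier results of these data known. Levels on all arrays are given for the brightest member of each family and for members at least 4-fold apart in a response or between a mock mutant and mock wild type, up to the 30 of 35 with the widest range, and others by range and counts. Marker lists were read for fibroblasts, macrophages, hepatocytes, epithelium, mesothelium, endothelium, fat cells and steroid-making cells. Copies were compared by probe sequence (at least 30 shared bases, at most 15% mismatches). Alternatives were median scaling, normexp background (offset 50), the deposited table, a filter on all 6 arrays, the mean of a gene's probes, thresholds of 1.5-fold and 4-fold, ordinary least squares, and the fit without the transfected Per2m/m array.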

Additional observations from a re-analysis of the deposited data

Results flagged for a closer look

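In 12 members the pairs of 2 genotypes were at least 2-fold apart in opposite directions, giving 17 differences between responses. With 1 array a group none of these differences was tested, and responses measured against a dim array are included at their measured ratio. Of all genes, 19.4% were at least 2-fold apart in the wild type response, 7.90% in the Clk/Clk and 39.3% in the Per2m/m response. Opposite directions were not counted over all genes, so whether 12 is many for this set was not tested.

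Against Clk/Clk cells, the Per2m/m response was higher by 9.55 for Cbr2 (−3.97 against 5.58), 6.48 for Mgst2, 5.97 for Akr1b7, 5.74 for Gstm1, 4.51 for Gstm7, 3.58 for Gstm4, 3.12 for Gstm3 and 2.98 for Gsta4. The ratio for Akr1b7 and Gstm7 includes values below background, and the arrays through which both were kept fixed their directions. That for Gstm4 reverses with its other probe. For Gstk1 and Gsto2 the Clk/Clk response was the higher one, and the differences of Per2m/m minus Clk/Clk were −8.74 and −4.36. Gstk1 was not well above background on the transfected Per2m/m array, and with its bound there the difference is −6.78.

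Clk/Clk minus wild type gave −6.18 for Cbr2, −2.64 for Mgst2, 4.79 for Gstk1 and 2.62 for Gsto2. Per2m/m minus wild type gave 2.86 for Gsta4, 2.84 for Sult2b1 and 4.52 for Sult6b1, whose transfected wild type value is below background.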

How the results depend on the processing

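No paired analysis was possible because each group held 1 array and the groups compared share fewer than 2 replicate numbers; that concerns pairing by number, and the additive model does compare transfected with mock arrays within each genotype. In the order wild type, Clk/Clk and Per2m/m response, then mock Per2m/m, mock Clk/Clk, transfected Per2m/m and transfected Clk/Clk over wild type, 16, 14, 35, 9, 19, 28 and 20 members were at least 2-fold apart. With the filter on all 6 arrays, which left 27 members, these were 6, 7, 17, 3, 5, 14 and 7. With normexp background they were 8, 8, 4, 10 and 12 for the wild type and Clk/Clk responses, mock Per2m/m, mock Clk/Clk and transfected Clk/Clk. A threshold of 4-fold gave 7, 3, 5, 11 and 10 for these 5, and a threshold of 1.5-fold 26, 23 and 18 for the first 3. All other counts lay within 1.5 times of those reported. The bound in place of values below background, chosen after the data were seen, also kept every count within 1.5 times. Leaving out the 8 members kept through 1 array, likewise chosen then, gave 5 for mock Per2m/m and kept the other counts within 1.5 times, with median responses of −0.46, −0.31 and 1.07.

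The members' median response in wild type cells was −0.060 with median scaling, −0.28 with normexp, −0.22 with the filter on all 6 arrays and −0.58 with dim members at their bound. In Clk/Clk cells it was −0.37 with that filter and −0.36 at the bound. In Per2m/m cells it was 1.22, 0.55 and 0.64 with the first 3 of these, 0.78 with the deposited table and 0.78 with the mean of kept probes. No median changed sign in any of these settings.

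Of 328 alternative values for 75 ratios of named members, 126 moved by less than the spread of spots, 200 moved by more, and 2 reversed: the Per2m/m response of Gstt1 was 0.33 with the filter, which takes its other probe, and that of Gstm4 was −1.85 with the mean of kept probes. The model called 0 members in every setting. Without the transfected Per2m/m array, members with an unadjusted p under 0.05 numbered 4, 3 and 13 of 50 for transfection, Per2m/m and Clk/Clk, against 3.56%, 3.48% and 15.3% of all genes, and the lowest limma adjusted p of a member was 0.936, 0.399 and 0.146.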
